A study of Mus musculus with 12 samples.

Results

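The distal optic vesicle, the outer part of the early eye cup that becomes the retina, was compared between Bmp4 knockout (KO) and wild-type (WT) mouse embryos. The comparison used 6 of the 12 arrays in the series, all 3 labelled KO distal optic vesicle and all 3 labelled WT distal optic vesicle, and covered 11924 annotated genes. The other 6 arrays hold surface ectoderm, the prospective lens, from the same 2 genotypes, and entered the choice of detected genes, the shared estimate of spread and the test of a difference between tissues. All embryos were at E10.5, in days of embryonic development, and of mixed C57BL6 and FVB background. The KO embryos carried a deletion of Bmp4 in the optic vesicle per the series title, and the labels give neither the driver nor the allele that was used. Tissue was cut from 10 µm frozen sections by laser microdissection after eosin staining, and 15 ng of RNA was amplified for Illumina bead arrays. The design text names 3 embryos of each genotype and pooled RNA, which leaves unclear if each of a group's 3 arrays is its own embryo. Every p-value below then measures the spread between these arrays, which may be technical.

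Bmp4 encodes a secreted ligand that binds paired serine/threonine kinase receptors and signals through Smad transcription factors. In the optic vesicle it is made on the dorsal side, where it is known to set dorsal identity and to act on the ectoderm that forms the lens. The vesicle itself gives rise to the neural retina, which depends on FGF signalling from the ectoderm, and to the pigmented epithelium behind it, which depends on Otx2, Mitf and Wnt signalling.

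Each vesicle array detected between 45.3% and 46.7% of its probes, with a median of 40 to 43 beads behind a probe's value. Across genes, arrays of one genotype correlated at 0.961 to 0.963 in WT and at 0.950 to 0.957 in KO, against 0.937 to 0.946 between the genotypes. The vesicle markers Rax, Lhx2, Six3, Pax6, Mab21l2 and Fgf15 were detected on all 6 arrays. Of 9 measured lens markers 4 were detected on no WT array and 2, Foxe3 and Pitx3, on no KO array, while Prox1 was detected on all 6. All levels are normalised log2 intensities in arbitrary units, listed for replicates 1, 2 and 3 in that order, and a difference is KO minus WT on that scale. Levels are compared within a gene only. Since the arrays read RNA from tissue pieces, fewer cells of a type and less RNA per cell cannot be told apart.

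In KO vesicle 215 of the 11924 genes differed at a limma adjusted p below 0.05, which is 1.8% of the genes tested. Of these, 124 were higher (1.04%) and 91 lower (0.763%), while 1450 genes had an unadjusted p below 0.05. The shares of 1.8%, 1.04% and 0.763% are the base against which each list's count of called genes is set. The median difference over all genes was -0.02. A 2-fold difference was passed by 102 of the higher and 59 of the lower genes, and 4-fold by 40 and 25, while beyond 8-fold there were 8 of each. In all 215 genes the 3 KO values lay on one side of the 3 WT values, as they did in 21.2% of all genes, 9.44% with KO above and 11.7% with KO below. The dim group had no array with a detected probe, over all probes kept, in 20 of the 215 genes, for which the fold is a lower bound of between 1.55 and 41.1. Such a bound sets the bright group's mean against the dim group's, where each dim array takes its own probe value or its faintest detected signal, whichever is greater. With each of the 6 arrays left out in turn, 90 of the 215 genes passed every time and 29 never did.

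**Figure D1:**
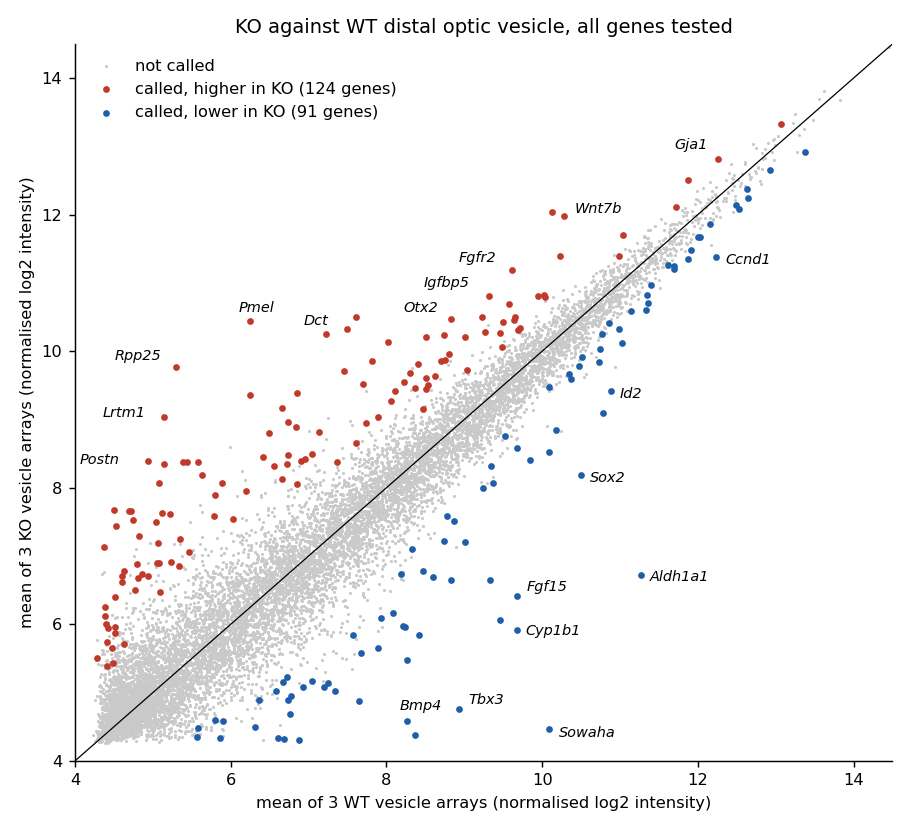
Mean normalised log2 intensity of each of the 11924 genes on the 3 WT (horizontal axis) and 3 KO (vertical axis) vesicle arrays, with genes higher in KO in red (124), genes lower in KO in blue (91), the others in grey and the line of equal level in black. Sowaha, Aldh1a1 and Tbx3 lie farthest below the line, and Rpp25, Pmel and Lrtm1 farthest above it.

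The targeted gene came first. Bmp4 read 8.26, 8.30 and 8.22 on the WT arrays and 4.27, 5.18 and 4.31 on the KO arrays, so the genotypes were well apart. All 3 WT arrays but only 1 of 3 KO arrays detected its probe, and the difference was -3.67 with an SE of 0.40 (limma adjusted p = 0.00010, n = 3 arrays each). A second, dimmer Bmp4 probe stood at 6.34 ± 0.07 in WT and 5.22 ± 0.37 in KO (SD, n = 3 each), was detected on all 3 KO arrays and did not pass in a fit of all probes (limma adjusted p = 0.46). The labels do not say whether either probe lies in the deleted sequence.

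Beside Bmp4 itself, the BMP pathway genes that passed were ligands and a ligand modulator, with 0 receptors or Smads. Of 14 measured ligands and antagonists 2 were called lower, the deleted Bmp4 and Gdf6, while 2 were higher and 10 not called (median 0.04). Gdf6, a BMP ligand of the dorsal eye, read 8.51, 8.11 and 8.47 in WT and 4.35, 4.47 and 4.31 in KO, where its probe was detected on 0 of 3 arrays, so that it was at least 12.4-fold lower (limma adjusted p = 4e-05). Bmp7, a ligand of another BMP subgroup that is needed for eye formation, moved the other way, from 5.42, 6.05 and 5.41 in WT to 8.21, 8.24 and 8.12 in KO, a rise of 2.56 (SE 0.41, limma adjusted p = 0.0031). Its KO values were closer together than its WT values. A dimmer Bmp7 probe, detected on 1 of 3 arrays of either genotype, stood at +0.09 without passing (limma adjusted p = 0.97 in a fit of all probes). Smoc1, a matrix protein that modulates BMP signalling, went from 5.70, 4.92 and 4.81 to 8.23, 8.73 and 8.07, a rise of 3.20 (SE 0.56, limma adjusted p = 0.0066), and the antagonist genes Sostdc1 and Crim1 stood at +1.29 and +1.44 without passing (limma adjusted p = 0.066 and 0.075), with Sostdc1 detected on 0 WT and 3 KO arrays. None of the 14 measured receptors, Smads and Smad regulators passed (0 higher, 0 lower, median -0.04), where 1.8% of all genes did. The type I receptors Bmpr1a and Bmpr1b stood at -0.68 and -1.25, and Smad1 at -0.40.

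Genes that answer to BMP signalling had a list median of -0.77. Of the 12 measured, 2 fell, 0 rose and 10 did not pass, and in 6 each KO value lay below each WT value (11.7% of all genes). Id2, which encodes an inhibitor of basic helix-loop-helix factors, read 10.99, 10.82 and 10.83 in WT and 9.41, 9.65 and 9.20 in KO, a change of -1.46 (SE 0.15, limma adjusted p = 5.7e-05). Its family members Id1, Id3 and Id4 stood at -1.56, -0.79 and -0.75 without passing, Id1 with 1 KO array, replicate 1 at 7.81, close to the WT values of 8.07 to 8.40. Tbx3, a T-box repressor that is also a gene of the dorsal retina, read 9.07, 8.91 and 8.81 in WT and 4.82, 4.37 and 5.07 in KO (detected on 2 of 3), a change of -4.18 (limma adjusted p = 2.1e-05).

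The dorsal retina list had the lowest median of all 39 lists, -2.18. Of its 9 genes 5 fell (0.763% of all genes), 0 rose and 4 did not pass. Bmp4, Gdf6 and Tbx3 are 3 of the 5. As the deleted gene, Bmp4 counts in both the median and the 5. Aldh1a1, the dorsal enzyme of retinoic acid synthesis, read 11.27, 11.31 and 11.22 in WT and 6.55, 7.20 and 6.41 in KO, a change of -4.55 (SE 0.23, limma adjusted p = 8.2e-08). Its neighbour and close relative Aldh1a7 fell by 2.69, and one probe may read both genes. Efnb2, an ephrin that marks dorsal cells for axon guidance, fell by 2.18 and kept 3 detected KO arrays at 6.41 to 6.79. The T-box genes Tbx2 and Tbx5 stood at -1.22 and -1.02 and did not pass (limma adjusted p = 0.13 and 0.078). Tbx5 was detected on 0 of 3 KO arrays, whereas a second Tbx2 probe, at -0.43, was detected on all 3.

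The ventral retina and optic stalk list gave a call in each direction: of 8 measured 1 rose, 1 fell and 6 did not pass (median -0.26). Aldh1a3, the ventral retinoic acid enzyme, read 9.74, 9.69 and 9.53 in WT and 10.42, 10.59 and 10.51 in KO, a rise of 0.85 (SE 0.11, limma adjusted p = 0.00039). Cyp1b1, a cytochrome P450 enzyme of the eye, read 9.70, 9.83 and 9.49 in WT and 5.83, 6.03 and 5.91 in KO and fell by 3.75 (SE 0.23, limma adjusted p = 4.7e-07). The homeobox genes Vax2 and Pax2 stood at -0.02 and -0.49, and Vax1 at +1.27 with KO values of 7.25 to 8.22 above all WT values (5.77 to 6.66), none of them passing. Of 13 retinoic acid genes Aldh1a3 and Stra6, the retinol uptake receptor, rose and Aldh1a1 fell (median 0.05), while the binding protein gene Crabp1 stood at -1.27 (limma adjusted p = 0.068).

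**Figure D2:**
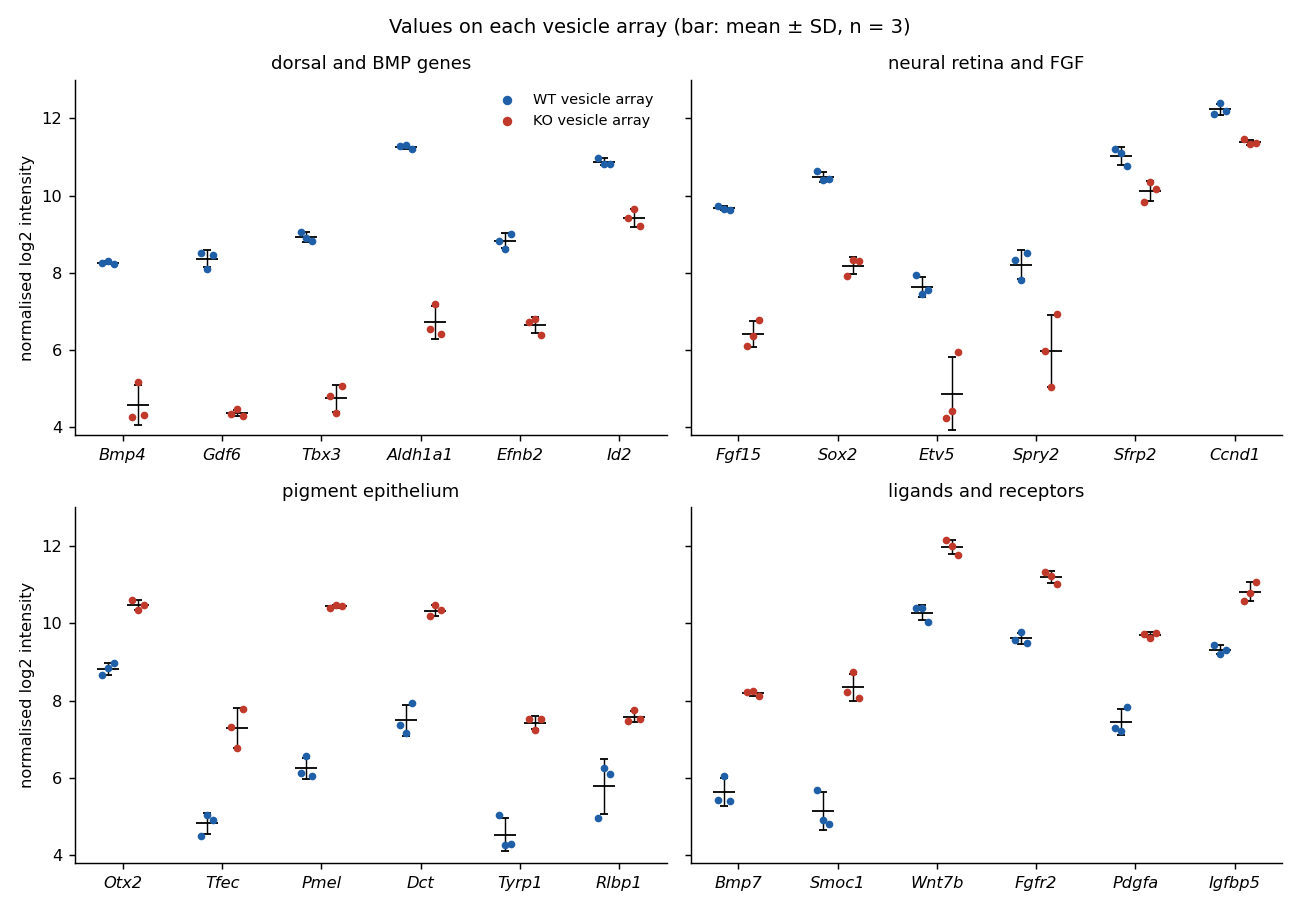
Normalised log2 intensity on each vesicle array for 24 genes in 4 groups, WT in blue and KO in red, with bars at the mean ± SD (n = 3 arrays). In every gene shown the 3 KO points lie on one side of the 3 WT points, and Etv5 and Spry2 have the widest KO spread.

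Genes of the neural retina divided into a part that fell and a larger part that was not called. Of 21 measured eye field and neural retina genes 5 fell, 1 rose and 15 did not pass (median -0.27). Fgf15, a secreted factor of the prospective retina, read 9.74, 9.66 and 9.64 in WT and 6.10, 6.36 and 6.77 in KO, a change of -3.27 (SE 0.33, limma adjusted p = 5.5e-05). Sox2, the transcription factor that maintains neural progenitors, read 10.64, 10.41 and 10.42 in WT and 7.93, 8.35 and 8.30 in KO, a change of -2.30 (SE 0.17, limma adjusted p = 3.9e-06). Mab21l1, a gene needed for lens and eye growth, fell by 1.25, the Wnt inhibitor Sfrp2 by 0.92 and the cyclin Ccnd1 by 0.86, each with 3 KO values below 3 WT values; leaving out 1 array took Sfrp2 to a limma adjusted p of 0.052. Against these, the eye field regulators Rax, Six3, Pax6 and Lhx2 stood at -0.53, -0.27, +0.07 and +0.47 without passing, and Meis2, a homeobox gene, rose by 0.62. Mab21l2 stood at +0.86 with KO values of 9.36 to 9.55 above WT values of 8.44 to 8.68, and did not pass (limma adjusted p = 0.30).

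Few neuronal genes could be read at this stage. Of 12 measured neurogenesis and early neuron genes 1 fell and 11 did not pass (median -0.20). Syt1, a synaptic vesicle calcium sensor, read 7.93, 8.71 and 8.16 in WT and 5.28, 5.38 and 5.78 in KO, a change of -2.79 (SE 0.43, limma adjusted p = 0.0023). Neurog2 and Isl1 were detected on 0 of the 6 arrays. Gadd45g stood at +2.32 with KO values from 5.65 to 8.37 and did not pass (limma adjusted p = 0.097).

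Of 14 measured genes that FGF induces through the kinase ERK, 8 were called lower (0.763% of all genes), 0 higher and 6 not called. Their median was -0.99 with a highest value of +0.86. They span transcription factors and negative feedback regulators. Etv5, an ETS factor, read 7.94, 7.44 and 7.56 in WT and 4.25, 4.42 and 5.96 in KO, detected on 1 of 3 KO arrays, a change of -2.77 (SE 0.48, limma adjusted p = 0.0062). Its relative Etv1 fell by 1.85, with KO values of 5.72 to 6.59. Spry2, an inhibitor of receptor tyrosine kinase signalling, read 8.33, 7.81 and 8.52 in WT and 5.97, 5.04 and 6.93 in KO and fell by 2.24 (limma adjusted p = 0.0068). The ERK phosphatase genes Dusp4, Dusp5 and Dusp6 fell by 2.09, 1.55 and 0.65, and the inhibitor gene Spred3 by 1.83. In each of Etv1, Etv5, Spry2, Dusp4, Dusp5 and Spred3 replicate 3 was the highest of the KO arrays. Without 1 array the highest limma adjusted p was 0.056 for Dusp4, 0.060 for Etv1, 0.085 for Spred3, 0.11 for Dusp5 and 0.11 for Dusp6, while Etv5, Spry2 and Ccnd1 passed in all 6 such fits. The list's count went from 8 to 4 without WT replicate 1, to 4 without WT replicate 3 and to 5 without KO replicate 2.

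FGF ligands and a receptor differed in opposite directions. Of 10 measured genes Fgf15 and Fgf9 were called lower, Fgfr2 higher and 7 not called (median -0.13). Fgf9, a ligand made by the distal vesicle, read 6.12, 6.79 and 6.91 in WT and 4.43, 4.31 and 4.24 in KO, where it was detected on 0 of 3 arrays, and was at least 3.68-fold lower (limma adjusted p = 0.033, but up to 0.12 and never below 0.05 with an array left out). Fgfr2, a receptor of these ligands, read 9.57, 9.78 and 9.50 in WT and 11.33, 11.22 and 11.03 in KO, a rise of 1.58 (SE 0.12, limma adjusted p = 5e-06). Fgf10 stood at -1.53, with a detected probe on all 3 WT arrays and 0 of 3 KO arrays, and did not pass (limma adjusted p = 0.11), and Fgfr1 stood at +0.27.

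Regulators of the pigmented epithelium rose in part. Of 13 measured 2 rose, 1 fell and 10 did not pass (median 0.24). Otx2, a homeobox factor that is required for this epithelium, read 8.66, 8.85 and 8.97 in WT and 10.59, 10.35 and 10.48 in KO, a rise of 1.65 (SE 0.20, limma adjusted p = 0.00028). Tfec, a factor of the same family as Mitf, read 4.51, 5.04 and 4.92 in WT, detected on 2 of 3 arrays, and 7.33, 6.77 and 7.79 in KO, a rise of 2.48 (SE 0.34, limma adjusted p = 0.00094). Crx, an Otx relative of photoreceptor precursors, read 6.92, 7.58 and 6.26 in WT and 4.70, 4.53 and 6.02 in KO and was called lower, at -1.84, but passed in only 2 of the 6 fits with an array left out (limma adjusted p up to 0.14). Mitf itself stood at +0.04 on its brighter probe, while a dimmer probe was higher by 2.63 in a fit of all probes (limma adjusted p = 0.0027), so the size of its difference and its call depend on the probe.

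Melanosome genes held the largest rise of any list gene, Pmel. Of 17 measured 5 rose (1.04% of all genes), 0 fell and 12 did not pass (median 0.40). Pmel, the protein that builds the fibres on which melanin is laid down, read 6.13, 6.56 and 6.05 in WT and 10.41, 10.48 and 10.44 in KO, a rise of 4.20 (SE 0.33, limma adjusted p = 5.3e-06). Its 3 KO values lay closer together than its WT values. Dct, an enzyme of melanin synthesis, read 7.37, 7.16 and 7.94 in WT and 10.18, 10.47 and 10.34 in KO, a rise of 2.84 (SE 0.41, limma adjusted p = 0.0014). Tyrp1, another enzyme of that pathway, read 5.03, 4.27 and 4.29 in WT, detected on 1 of 3 arrays, and 7.52, 7.25 and 7.53 in KO, a rise of 2.90 (SE 0.27, limma adjusted p = 2.7e-05). A dimmer Tyrp1 probe stood at +0.37 and did not pass (limma adjusted p = 0.55 in a fit of all probes). The GTPase gene Rab38, which serves the transport of melanin enzymes, and the channel gene Trpm1 rose by 2.31 and 2.04. Gpnmb, a relative of Pmel, stood at +2.60 with WT values from 4.45 to 7.85 and KO values from 8.46 to 8.82, and did not pass (limma adjusted p = 0.10). Rab32, Hps4 and Hps5, which act in melanosome formation, stood at -1.08, -0.44 and -0.50 without passing.

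Promoters of 3 of the 5 called melanosome genes are shown, because Mitf is known to bind the M-box (TCATGTG) and Otx2 the core TAATCC. For the other called members, Pmel and Rab38, no promoter window was available, so their motifs are not known here. The windows run from 250 bases before to 50 bases after a transcription start and come from RefSeq for build GRCm38.p6, written 5′ to 3′ on the strand of the gene. Capitals mark the M-box and the OTX core on either strand.
Tyrp1, chr4:80833963-80834262, plus strand: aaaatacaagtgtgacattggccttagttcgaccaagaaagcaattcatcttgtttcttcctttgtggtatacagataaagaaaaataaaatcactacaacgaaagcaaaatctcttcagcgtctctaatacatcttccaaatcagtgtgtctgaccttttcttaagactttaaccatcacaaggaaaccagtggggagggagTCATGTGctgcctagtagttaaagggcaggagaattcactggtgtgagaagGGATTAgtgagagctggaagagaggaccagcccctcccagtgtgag
Dct, chr14:118052197-118052496, minus strand: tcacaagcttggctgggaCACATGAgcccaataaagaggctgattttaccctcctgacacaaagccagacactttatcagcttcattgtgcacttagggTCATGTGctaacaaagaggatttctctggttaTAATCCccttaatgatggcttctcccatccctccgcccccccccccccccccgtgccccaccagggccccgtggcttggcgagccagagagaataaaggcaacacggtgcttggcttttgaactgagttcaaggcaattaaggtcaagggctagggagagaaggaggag
Trpm1, chr7:64153585-64153884, plus strand: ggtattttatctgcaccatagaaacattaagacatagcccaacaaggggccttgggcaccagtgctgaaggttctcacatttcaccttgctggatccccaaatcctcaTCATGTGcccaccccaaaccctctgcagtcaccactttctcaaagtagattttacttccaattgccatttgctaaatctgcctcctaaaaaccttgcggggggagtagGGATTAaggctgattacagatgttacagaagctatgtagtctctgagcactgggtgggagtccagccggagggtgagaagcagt

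In Tyrp1 the M-box began at position -47 and the OTX core, on the reverse strand, at position 5, counting the first transcribed base as 1. Dct held an M-box at -151, another on the reverse strand at -232 and an OTX core at -119. The Trpm1 window shown, 1 of 2 for the gene, held an M-box at -142 and a reverse OTX core at -34. The other Trpm1 window, which is not shown, held neither motif. Of the 12285 promoter windows of all genes tested, 2.12% held an M-box, 5.76% an OTX core, 9.65% an E-box (CACGTG) and 20.4% the GC element GGCGCC that Smads bind. The M-box and the E-box differ in their letters, so no match counts for both. Of 126 windows of genes called higher 5.56% held an M-box and 10.3% an OTX core, and of 100 windows of genes called lower 2.0% and 8.0%. An E-box stood in 6.35% of the windows of higher genes and 9.0% of those of lower genes. GGCGCC stood in 12.7% of the windows of higher genes and in 17.0% of those of lower genes, Id2 and Efnb2 among the latter. Besides Tyrp1, Dct and Trpm1, the genes called higher with an M-box were Filip1, Itga3, Ppargc1a and Tspan10, of which Ppargc1a passed in 2 of the 6 fits with an array left out. These matches describe letters in a window and were not tested as binding sites.

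Later genes of the pigmented epithelium also included called members, 4 higher and 0 lower of 13 (9 not called, median 0.20). Rlbp1, the retinaldehyde binding protein of the visual cycle, read 4.97, 6.27 and 6.10 in WT and 7.48, 7.75 and 7.53 in KO, a rise of 1.81 (SE 0.38, limma adjusted p = 0.023). Stra6 read 5.42, 5.37 and 5.61 in WT and 6.57, 7.38 and 7.23 in KO, a rise of 1.59. Both calls were thin, since each passed in only 1 of the 6 fits with an array left out (limma adjusted p up to 0.12 for both). The gap junction gene Gja1 rose by 0.55 from an already bright level, with WT values of 12.15 to 12.35 and KO values of 12.79 to 12.84 (limma adjusted p = 0.00010), and the keratin gene Krt18 rose by 2.04. Serpinf1, which encodes the secreted factor PEDF, stood at -0.92, and Best1, Rdh5 and Rdh10 at -0.34, -0.36 and -0.28, none passing. Of 26 genes of lysosomes and the proton pump 0 passed (median 0.34), against 1.8% of all genes, the nearest being Npc2 at -0.37 (limma adjusted p = 0.054). The 5 measured markers of neural crest melanoblasts, the other source of pigment cells, had mean levels of 4.99 to 5.44 in WT and 4.82 to 5.42 in KO, with 0 called (median 0.14). Mlana and Erbb3, detected on 0 of 3 WT arrays and on 2 and 1 KO arrays, stood at +0.54 and +0.14, and Kit and Ednrb at -0.19 and -1.55.

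Outside the lists and outside the rule by which genes are named, 2 further called genes are known from the pigmented epithelium. Tspan10, a tetraspanin, read 4.31, 4.64 and 4.22 in WT, detected on 0 of 3 arrays, and 5.51, 6.42 and 6.44 in KO, at least 2.58-fold higher (limma adjusted p = 0.0016). C1qtnf5, a secreted protein of that epithelium, rose by 2.09 (SE 0.31, limma adjusted p = 0.0016), from 5.06, 4.30 and 5.02 to 7.10, 6.63 and 6.92. They were singled out after their values were seen.

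**Figure D3:**
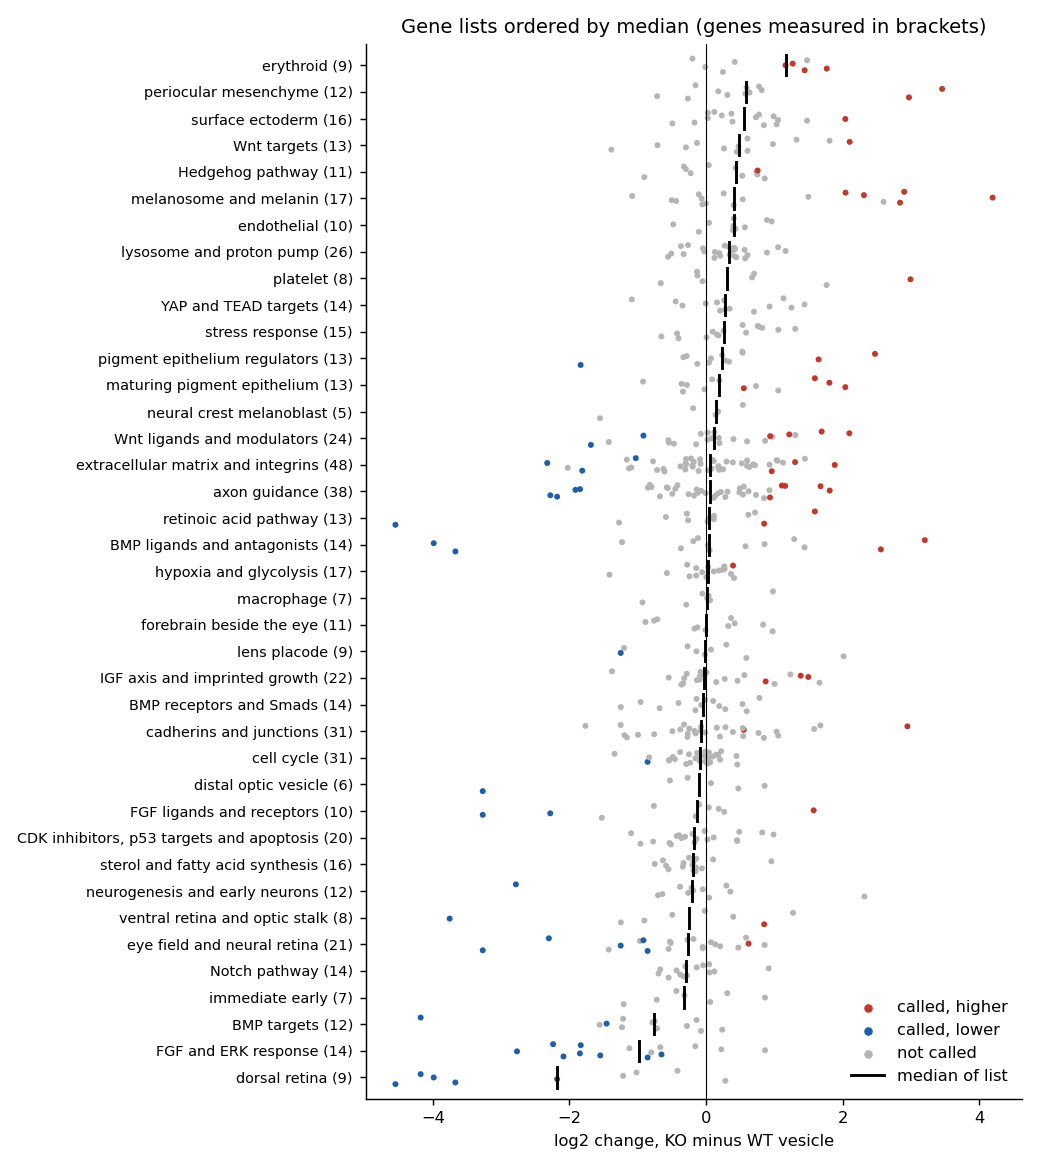
Difference between KO and WT vesicle (log2) for each measured gene of the 39 lists, with called genes in red (higher) or blue (lower), the others in grey and the list median as a black bar. The dorsal retina, FGF and ERK response and BMP target lists have the 3 lowest medians, and the erythroid list the highest.

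The Wnt ligand genes Wnt7b, Wnt2b and Wnt5a were called higher, and secreted inhibitors were called in both directions. Of 24 ligands, receptors and modulators 4 rose, 2 fell and 18 did not pass (median 0.12). Wnt7b read 10.39, 10.40 and 10.05 in WT and 12.15, 11.99 and 11.78 in KO, a rise of 1.69 (SE 0.20, limma adjusted p = 0.00021). Wnt2b, a ligand of the dorsal eye and pigmented epithelium, was detected on 0 of 3 WT arrays (4.26, 4.26 and 4.34) and on 3 of 3 KO arrays (5.46, 5.52 and 5.54), at least 1.68-fold higher (limma adjusted p = 0.0068). Wnt5a, a ligand of the noncanonical branch, rose by 2.10 from 6.67, 4.99 and 5.74 to 7.93, 8.06 and 7.70, and passed in 2 of the 6 fits with an array left out (limma adjusted p up to 0.069). Dkk3, a secreted protein of the Dickkopf family, read 10.87, 10.79 and 10.69 in WT and 9.23, 8.79 and 9.28 in KO and fell by 1.69 (limma adjusted p = 1.6e-05), as Sfrp2 fell. Its relative Sfrp1, which lies outside the naming rule, rose by 0.94 (limma adjusted p = 0.049), a call lost with any 1 array left out (up to 0.19). The receptor genes Fzd5 and Fzd7 stood at -1.42 and +0.87 without passing.

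Of 13 genes that canonical Wnt signalling induces, 1 rose, 0 fell and 12 did not pass (median 0.48). Sp5, a transcription factor, read 4.28, 4.29 and 5.23 in WT (detected on 1 of 3) and 6.22, 6.76 and 7.13 in KO, a rise of 2.10 (limma adjusted p = 0.020, up to 0.10 with an array left out, passing in 2 of 6 fits). The feedback genes Axin2, Znrf3 and Lef1 stood at +0.61, +0.61 and +0.26, and Dkk1, an inhibitor, at -1.39.

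Pdgfa and 3 genes of the IGF axis were called higher in KO vesicle. Pdgfa, the ligand of the receptor Pdgfra, read 7.30, 7.22 and 7.83 in WT and 9.72, 9.63 and 9.76 in KO, a rise of 2.26 (SE 0.20, limma adjusted p = 1.3e-05), and is named outside the rule. Of 22 genes of the IGF axis and imprinted growth genes 3 rose, 0 fell and 19 did not pass (median -0.02). Igf2, a growth factor, read 10.04, 9.91 and 9.87 in WT and 10.92, 10.80 and 10.73 in KO, a rise of 0.87 (SE 0.10, limma adjusted p = 0.00013). Igfbp5, an IGF binding protein, read 9.43, 9.21 and 9.30 in WT and 10.59, 10.78 and 11.08 in KO, a rise of 1.50 (SE 0.12, limma adjusted p = 5e-06). Irs1, the adaptor that carries the receptor signal onward, rose by 1.39, and the receptor gene Igf1r stood at +0.15. In the Hedgehog list 1 of 11 genes rose, Gli3, by 0.76 (median 0.43), which passed in 1 of the 6 fits with an array left out (limma adjusted p up to 0.16). Sulf1, an enzyme that trims heparan sulphate and so alters growth factor binding, and Scube3, a secreted cofactor of growth factors, rose by 1.16 and 1.21 (outside the naming rule).

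Axon guidance genes held called members in both directions. Of 38 measured 5 rose (1.04% of all genes), 4 fell (0.763%) and 29 did not pass (median 0.05). Teneurins, adhesion receptors of neurons, made up 3 of the 5. Tenm2 read 7.42, 7.23 and 6.76 in WT and 8.93, 8.59 and 8.92 in KO, a rise of 1.68 (SE 0.20, limma adjusted p = 0.00024). Tenm3 and Tenm4, outside the naming rule like Efna5, rose by 1.16 and 1.11, of which Tenm4 passed in 1 of the 6 fits with an array left out (limma adjusted p up to 0.19). Robo1, a receptor of Slit proteins, read 8.01, 7.76 and 7.33 in WT and 9.51, 9.33 and 9.70 in KO, a rise of 1.81 (SE 0.20, limma adjusted p = 0.00010), and the ephrin gene Efna5 rose by 0.94. Epha5, a receptor of A-type ephrins, read 8.17, 8.37 and 8.18 in WT and 6.03, 5.51 and 6.33 in KO and fell by 2.28 (limma adjusted p = 0.0021). The repellent genes Sema3a and Sema3e fell by 1.91 and 1.84. Sema3e, outside the rule, passed in 0 of the 6 fits with an array left out (limma adjusted p up to 0.14).

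Of 31 cadherins and junction genes Gja1 and Pcdh10 rose, 0 fell and 29 did not pass (median -0.07). Pcdh10, a protocadherin, read 5.24, 4.24 and 4.67 in WT (detected on 1 of 3) and 7.90, 7.90 and 7.20 in KO, a rise of 2.95 (SE 0.46, limma adjusted p = 0.0023). N-cadherin (Cdh2) stood at +0.20 and E-cadherin (Cdh1) at +0.85, the latter with a limma adjusted p of 0.065. Of 48 matrix and integrin genes 3 rose, 3 fell and 42 did not pass (median 0.06). Lamb1, a laminin chain of basement membranes, read 7.60, 8.31 and 8.41 in WT and 9.41, 9.23 and 9.60 in KO, a rise of 1.30 (SE 0.22, limma adjusted p = 0.0055). Its partner chain gene Lama1 stood at +1.13 (limma adjusted p = 0.087). Itga3 and Adamts9 rose by 1.89 and 0.96 and Itgb8, Col13a1 and Vcan fell by 2.33, 1.81 and 1.03, none of these 5 in every fit with an array left out (limma adjusted p up to 0.067, 0.21, 0.082, 0.077 and 0.17 in that order); Adamts9 is outside the naming rule.

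Several housekeeping and signalling lists of 7 to 20 genes held no called gene. Since 1.8% of all genes tested were called, lists this short would hold few or none at that share. In the Notch (14 genes, median -0.29), YAP and TEAD target (14, 0.27), CDK inhibitor, p53 and apoptosis (20, -0.18), stress (15, 0.26), immediate early (7, -0.32), sterol and fatty acid (16, -0.19) and neighbouring forebrain (11, -0.01) lists, the number called was 0. Of 31 cell cycle genes only Ccnd1 fell (median -0.09), and the replication genes Mcm2, Mcm3, Mcm4, Mcm5, Mcm6 and Mcm7 stood between -0.25 and +0.45. Among 17 hypoxia and glycolysis genes Tpi1, a glycolytic enzyme, rose by 0.40 (limma adjusted p = 0.013, up to 0.071 with an array left out), and Aldoa and Gapdh stood at +0.41 and +0.37 without passing. Slc2a3, a neuronal glucose transporter that was on no list and is named outside the rule, read 8.74, 8.75 and 8.75 in WT and 9.79, 9.89 and 9.91 in KO, a rise of 1.11 (SE 0.14, limma adjusted p = 0.00037).

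Among the 25 largest falls, several genes belong to none of these pathways. Sowaha, an ankyrin repeat gene, read 10.04, 10.16 and 10.09 in WT and 4.36, 4.65 and 4.37 in KO, detected on 0 of 3 KO arrays, and was at least 41.1-fold lower, the largest bound in the comparison. Dapl1 fell by 3.39, from 9.41, 9.68 and 9.28 to 6.63, 5.79 and 5.76 (limma adjusted p = 0.0021). Ptprz1, a receptor tyrosine phosphatase of neural progenitors, read 6.94, 7.12 and 6.59 in WT and changed by -2.57 (limma adjusted p = 4.5e-05). Its brighter probe was detected on 0 of 3 KO arrays, while a dimmer Ptprz1 probe was detected on 1 of them and stood at -0.28 without passing (limma adjusted p = 0.78 in a fit of all probes). Pde2a, a cyclic nucleotide phosphodiesterase, Crhbp, which binds corticotropin releasing hormone, and Sorcs1, a sorting receptor, changed by -2.11, -2.23 and -2.57. Sorcs1, Sorbs2, Lin7a and 1700055D16Rik were called on all 6 arrays and passed in 3, 2, 0 and 0 of the 6 fits with an array left out (limma adjusted p up to 0.063, 0.13, 0.21 and 0.19).

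The largest rises were of genes with varied roles. Rpp25, a protein subunit of the RNA-processing enzyme RNase P, read 5.75, 5.07 and 5.07 in WT and 9.30, 9.93 and 10.06 in KO, a rise of 4.46 (SE 0.65, limma adjusted p = 0.0016). The RNA subunit of the same enzyme, Rpph1 (outside the naming rule), fell by 0.73 and passed in 1 of the 6 fits with an array left out (limma adjusted p up to 0.21). Lrtm1, a leucine-rich repeat membrane protein, read 5.43, 5.18 and 4.80 in WT and 9.10, 9.20 and 8.82 in KO, a rise of 3.90 (limma adjusted p = 1e-05). Sgk1, a kinase that controls ion transport, read 7.37, 7.34 and 6.95 in WT and 10.20, 10.18 and 10.36 in KO, a rise of 3.03 (SE 0.41, limma adjusted p = 0.00075). Inmt, a methyltransferase of indole amines, rose by 2.90 from 7.61, 7.40 and 7.81 to 10.34, 10.74 and 10.43. Genes of the synapse and of ion channels were among the rises too: Gria3, a glutamate receptor subunit, rose by 2.80, and the endocytic adaptor gene Pacsin1 by 3.18 (detected on 1 of 3 WT arrays). The potassium channel gene Kcna6 and the synaptic vesicle gene Sv2b, both outside the rule, rose by 2.23 and 2.18, opposite to Syt1, and Sv2b passed in 2 of the 6 fits with an array left out (limma adjusted p up to 0.11). Slc38a8, an amino acid transporter of the eye, was bright in both genotypes and rose by 1.92, from 10.20, 10.15 and 10.04 to 12.11, 12.00 and 12.02 (limma adjusted p = 0.00010). Ociad2, Atp2a3, Lmo2, Prkcb and Kirrel3 were called higher, but passed in 1, 2, 1, 0 and 0 of the 6 fits with an array left out (limma adjusted p up to 0.082, 0.085, 0.099, 0.099 and 0.17).

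Transcriptional regulators outside the lists were called in both directions and are named outside the rule. Zfp503, a zinc finger repressor of the eye, read 8.93, 8.98 and 8.32 in WT and 9.84, 10.38 and 10.48 in KO, a rise of 1.49 (SE 0.22, limma adjusted p = 0.0016). The zinc finger gene Tshz1 rose by 1.19, Zfhx3 by 1.62, and Bhlha15, a helix-loop-helix factor of secretory cells detected on 0 of 3 WT arrays, was at least 1.97-fold higher. Zeb2, a Smad-interacting repressor, read 9.89, 10.11 and 9.52 in WT and 8.05, 8.86 and 8.29 in KO and fell by 1.44 (SE 0.25, limma adjusted p = 0.0068). Sall3 and Klf12 fell by 1.47 and 1.22 but passed in 1 and 2 of the 6 fits with an array left out (limma adjusted p up to 0.21 and 0.15).

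Markers of tissues next to the vesicle moved in the same arrays. The 9 measured erythroid genes had mean levels of 6.80 to 7.13 on the WT arrays and 7.80 to 7.95 on the KO arrays. Of them 4 rose (1.04% of all genes), the globins Hba-a1, Hba-x, Hbb-bh1 and Hbb-y (5 not called, median 1.16). Hba-a1 has a near-identical copy, Hba-a2, which its probe may also read. Of 8 platelet genes Pf4 rose, from 5.01, 5.25 and 5.88 to 8.60, 8.26 and 8.28, and Itgb3 was detected on 0 of the 6 arrays, with list means of 5.22 to 5.37 in WT and 5.77 to 6.22 in KO. Periocular mesenchyme genes had means of 4.84 to 5.18 in WT and 5.73 to 5.88 in KO. Of these 12 genes Postn, a matrix protein, and Alx4, a homeobox factor, rose by 3.46 and 2.97. The other 10 did not pass, Twist1, Prrx1 and Col3a1 at -0.15, +0.59 and +0.31. A second Alx4 probe stood at +0.12 without passing (limma adjusted p = 0.98 in a fit of all probes). The 16 surface ectoderm genes had means of 5.03 to 5.30 in WT and 5.72 to 5.83 in KO, with Krt18 called higher, 0 lower and 15 not called (median 0.56). In 7 of the 16 every KO value lay above every WT value, against 9.44% of all genes. On the probes used 9 of the 16 were detected on no WT array and 2, Trp63 and Wnt6, on no KO array. Among those not called, the epithelial regulators Grhl2 and Tfap2b, each detected on 0 of 3 WT and all 3 KO arrays, stood at +1.48 and +0.78, and Krt8, Perp, Grhl3 and Cldn6 at +0.73, +0.99, +1.05 and +1.03, each on 2 KO arrays. Endothelial means were 5.04 to 5.16 in WT and 5.38 to 5.51 in KO with 0 of 10 genes called, where 1.8% of all genes were. Lens (9 genes, 1 lower, Mab21l1) and macrophage lists (7 genes, 0 called) overlapped between the genotypes. The 6 vesicle markers had means of 9.06 to 9.20 in WT and 8.58 to 8.87 in KO, with Fgf15, at -3.27, the 1 called gene. The other 5 were not called, and the list median was -0.10 with a highest value of +0.86. The part of adjoining tissue in the genes that rose, Postn, Alx4, Krt18, Gja1, Stra6, Pf4 and Lmo2 among them, was not tested.

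**Figure D4:**
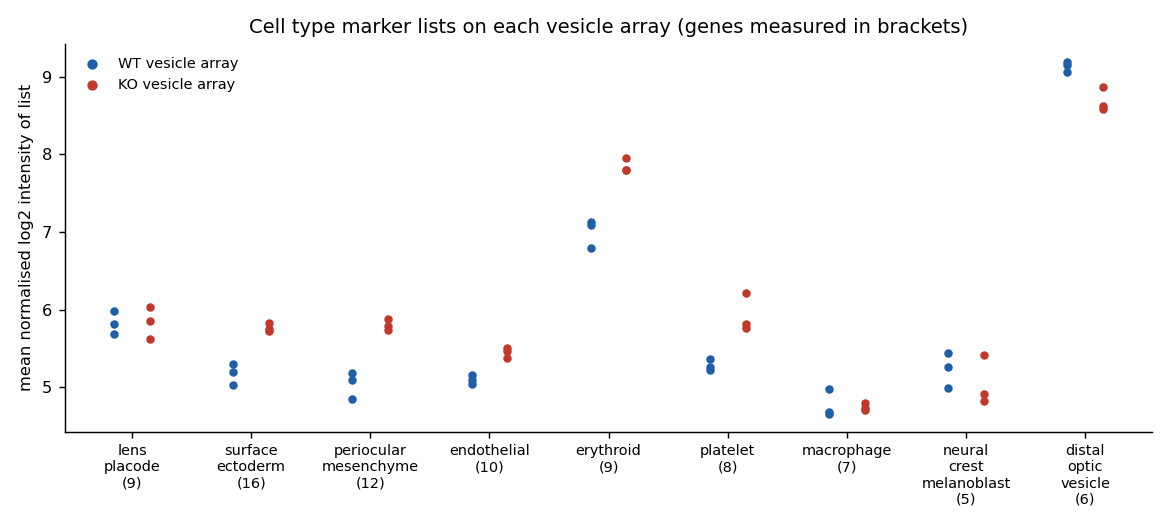
Mean normalised log2 intensity of the measured genes of each cell type marker list, 1 point for each WT (blue) and KO (red) vesicle array. The KO arrays lie above the WT arrays in the erythroid, platelet, mesenchyme, surface ectoderm and endothelial lists, below them in the distal optic vesicle list, and overlap with them in the other 3. The distal optic vesicle list holds Fgf15, at -3.27, and had a median difference of -0.10.

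The ectoderm over the vesicle allowed a test of whether the genotype difference itself differed between the tissues. The genotype difference in vesicle minus that in ectoderm passed for 168 genes, 1.41% of those tested, and 1555 had an unadjusted p below 0.05. Of the 215 genes called in vesicle 48 were among them, 30 higher and 18 lower in KO vesicle. This tissue difference contains the vesicle difference, so that a larger share among the 215 is built into the choice of genes. In 43 of the 48 the vesicle difference was the larger one in size. Aldh1a1 stood at -4.55 in vesicle and +0.15 in ectoderm (limma adjusted p of the tissue difference = 3e-06), and Cyp1b1 at -3.75 and +1.67 (1.1e-06). Pmel, Tyrp1, Postn, Lrtm1 and Rpp25 rose in vesicle by 2.90 to 4.46 and stood at +1.65, -0.01, +0.09, +0.07 and -0.33 in ectoderm. Ctsc, a lysosomal protease outside the naming rule, rose by 2.05 in vesicle and stood at -2.03 in ectoderm (limma adjusted p = 0.0044), though its vesicle call passed in 1 of the 6 fits with an array left out (limma adjusted p up to 0.13).

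In 5 of the 48 genes the ectoderm difference was the larger. Etv1 and Col13a1 stood at -1.85 and -1.81 in vesicle and at -4.59 and -5.63 in ectoderm, and Slc38a8 at +1.92 and +4.73. For most genes called in vesicle a tissue difference was not detected, which does not show that the tissues responded alike. Sox2 stood at -2.30 and -2.04 (limma adjusted p of the tissue difference = 0.72), Otx2 at +1.65 and +2.25 (0.38), Dct at +2.84 and +2.76 (0.97), Meis2 at +0.62 in both (0.99), and Spry2 at -2.24 and -2.35 (0.97). In ectoderm Dct had means of 4.51 in WT, detected on 0 of 3 arrays, and 7.27 in KO, detected on 3 of 3. Ectoderm means in WT and KO were 6.08 and 8.33 for Otx2, and 5.52 and 10.25 for Slc38a8. The part of vesicle tissue in the ectoderm pieces was not tested.

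**Figure D5:**
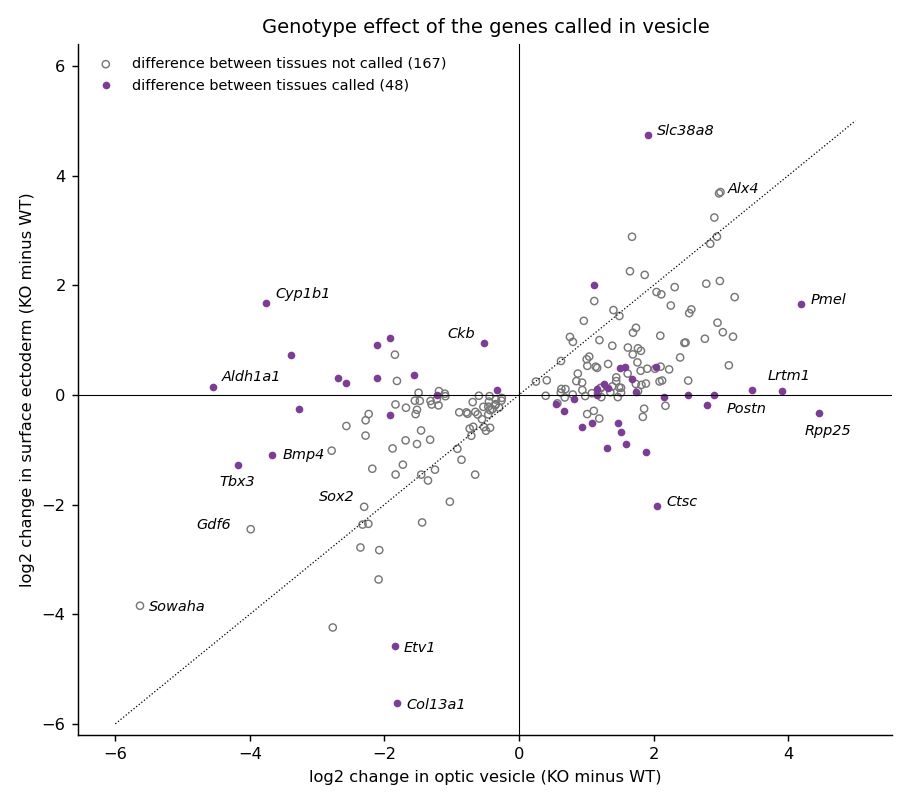
Genotype difference (KO minus WT, log2) in optic vesicle (horizontal axis) against that in surface ectoderm (vertical axis) for the 215 genes called in vesicle, filled where the difference between the tissues was called (48 genes) and open where it was not (167), with a dotted line of equal differences. Aldh1a1 and Cyp1b1 lie far left near or above 0 in ectoderm, and Rpp25, Lrtm1 and Postn far right near 0.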

How the data were processed

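The authors deposited a table with the mean bead intensity per probe and array on a linear scale, neither background-subtracted nor normalised, beside a bead number (other) and a detection p-value. It was exported from GenomeStudio per the submitters' processing notes, and its version is not given in the sources used here. A second deposited matrix gives the authors' own processed intensity, whose background and scaling options are not given in the sources used here. The medians of its vesicle columns lie between 9.40 and 9.42, and each column ranks its probes as its own array does, so it served as an alternative.

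The neqc function of limma 3.58.1 under R 4.3.3 normalised the intensities (controls inferred from the detection p, offset 16, quantile normalisation, log2). Named probes detected (p below 0.05) on at least 3 of 12 arrays were kept, 20531 of 45281. The platform annotation gives 1 symbol for 34885 probes, several for 18 and none for 10378. Each of 11924 genes was read from its brightest kept probe, and 5261 genes had more than 1. Groups were compared with lmFit and eBayes with trend over all 12 arrays and Benjamini-Hochberg adjustment, two-sided, calling adjusted p below 0.05. All adjusted p-values come from limma. The pipeline was tested on simulated data. Arrays limit the precision through their number, 3 per group. Correlations of the deviations of WT and KO vesicle arrays with equal replicate numbers were -0.04, -0.03 and -0.02. They gave no sign that the numbers pair these arrays, but with 3 arrays per group cannot exclude it.

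The comparison, its members and the 39 gene lists were chosen with earlier results of these data known. Some genes sit on several lists. Named genes are Bmp4, the 25 largest rises and falls with groups apart, up to 5 called and 2 uncalled members of each list by lowest p, and the 10 lowest p of the tissue difference. Other list members and genes said to lie outside the rule were chosen after their values were seen. Alternatives varied background, scaling, filter, probe choice, model, slide and arrays.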

Additional observations from a re-analysis of the deposited data

Results flagged for a closer look

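For 52 of the genes named, the genotype difference in vesicle minus that in surface ectoderm passed by the test of this difference itself, with limma adjusted p between 1.1e-06 and 0.046 (n = 3 arrays in each of 4 groups). Values below are that tissue difference on the log2 scale, in which a negative value means a lower KO to WT ratio in vesicle than in ectoderm. Among genes lower in KO vesicle the tissue difference was -5.42 for Cyp1b1, -4.70 for Aldh1a1, -4.11 for Dapl1, -3.02 for Fgf15 and -3.02 for Sorbs2. It was -2.99 for Aldh1a7, -2.91 for Tbx3, -2.79 for Ptprz1, -2.57 for Bmp4 and -2.42 for Pde2a. Sorbs2, Ptprz1 and Pde2a were detected on 0 of 3 WT ectoderm arrays, so a fall in ectoderm could not be read. Bmp4 and Fgf15 were detected on 3 of 3 WT and 1 of 3 KO ectoderm arrays, so background may limit their ectoderm difference. Smaller values were -1.54 for Sema3a, -1.47 for Ckb, a creatine kinase, and -0.41 for Hdac2, a histone deacetylase, of which Ckb passed in vesicle in 2 and Hdac2 in 0 of the 6 fits with an array left out. Etv1 and Col13a1, at 2.74 and 3.81, were lower in both tissues and more so in ectoderm.

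Among genes higher in KO vesicle the value was 4.80 for Rpp25, 4.08 for Ctsc, 3.83 for Lrtm1, 3.37 for Postn and 2.99 for Gria3. It was 2.91 for Tyrp1, 2.55 for Pmel, 2.51 for Lhfpl2, 2.49 for Stra6 and 2.27 for Lamb1. Lrtm1 and Tyrp1 were detected on 0 of 3 ectoderm arrays of either genotype, and Postn on 1 of 3 WT and 0 of 3 KO. Values between 1 and 2 were found for Tspan10 (1.69), Krt18 (1.53), Sfrp1 (1.53), Tenm2 (1.40) and Bhlha15 (1.21), as well as Tenm3 (1.16), Hbb-y (1.08), Fgfr2 (1.06), Hbb-bh1 (1.05) and Igfbp5 (1.00). Gja1 stood at 0.72, and Slc2a3 and Slc38a8 at -0.89 and -2.82, the last 2 rising in vesicle by less than their difference in ectoderm.

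In 14 of the 52 genes the vesicle difference did not pass by itself. Has2, a hyaluronan synthase, stood at 3.84, the lens crystallin genes Crybb3 and Cryba1 at 3.75 and 3.37, Prox1 at 3.49, Pdgfra at 3.31 and Pitx3 at 3.09. Jag1, a Notch ligand, stood at 2.80, Cdh1 at 1.54, Flrt2 at 1.45 and Atp1b3, a sodium pump subunit, at 1.21. The values were -3.70 for Wnt6, -2.56 for Crabp1, -1.98 for Bcl2 and -1.73 for Dlk1. On the probes used, Pitx3 and Wnt6 were detected on 0 of the 6 vesicle arrays, and a further Wnt6 probe on 1 KO array.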

How the results depend on the processing

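All 215 calls kept their direction under every alternative, although for genes whose groups do not overlap this is fixed when arrays are left out or slides taken apart. The count of 215 became 128 with median scaling in place of quantile normalisation, 412 with array weights, 65 within slide 2 (2 arrays per genotype) and 117 to 147 with an array left out. It was 142 without KO replicate 2 and 136, 131 and 117 without WT replicates 1, 2 and 3. With median scaling 68% of calls were higher in KO against 57.7%. Within slide 1 (1 array per genotype) limma called 0 genes, with 667 at an unadjusted p below 0.05, and the spread there comes from ectoderm alone; Bmp4 stood at -3.08 (limma adjusted p = 0.59). With an array left out Bmp4 stood between -3.97 and -3.51. The 168 tissue differences became 95 with median scaling, 111 without the filter on dim probes, 7 within slide 2, 0 within slide 1 (767 unadjusted) and 94 to 131 with an array left out. They were 94, 107 and 109 without WT replicates 2, 3 and 1. With the replicate number as a block, which the arrays' deviations do not bear out as a pairing, 147 vesicle genes and 89 tissue differences passed. Outside slide 1 the dorsal retina list held 5 to 7 called genes, the melanosome list 3 to 6 and the FGF and ERK list 1 to 9, the lowest within slide 2. For 20 of the 215 genes the dim group was never above background, so the size of the change is bounded only from below.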

Other observations

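In 113 of the 215 called genes a second probe had been kept. Another probe was called in the same direction in 32 of them and in the opposite direction in 0, and in 95 all other probes had the same sign. A further 29 genes were called only by a probe that was not their brightest, in a fit of all probes, and are in no count above. Igfbp7, a secreted IGF binding protein, was higher in KO on such a probe, at 4.95 ± 0.50 in WT and 8.18 ± 0.34 in KO (SD, n = 3 arrays each, limma adjusted p = 0.00035). Fzd4, a Wnt receptor, had a detected dimmer probe on 3 of 3 KO arrays and 0 of 3 WT arrays, higher by 1.49, and Fzd5, another, stood at -2.27 on its dimmer probe. Eya1, a phosphatase and transcriptional cofactor of eye development, Robo2, a Slit receptor, and Maob, a monoamine oxidase, were higher by 2.55, 1.91 and 2.28. Nr2f2, a nuclear receptor of the pigmented epithelium list, was higher by 0.99 on the dimmer probe and stood at +0.34 on the brighter one. The transcription factor gene Zic4 and the corepressor gene Tle1 were lower, with differences of -1.50 and -1.85.

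Several small differences were called in bright genes; those below were chosen after their values were seen. Rps2 and Rps14, proteins of the same ribosomal subunit, changed in opposite directions, by 0.25 and -0.46 (limma adjusted p = 0.033 and 0.0039). Rps14 read 13.19, 13.54 and 13.41 in WT and 12.89, 12.96 and 12.92 in KO and passed in all 6 fits with an array left out, while Rps2 passed in 1 of them. Celf2, an RNA-binding regulator of splicing, read 11.66, 11.71 and 11.70 in WT and 11.21, 11.23 and 11.15 in KO, a change of -0.49 that passed in all 6. Hdac2 and Adnp, a chromatin-bound homeobox protein, fell by 0.32 and 0.34 and passed in 0 and 2 of the 6. Other Adnp probes stood at +0.23 and -0.23 without passing (limma adjusted p = 0.51 and 0.69 in a fit of all probes), so its direction depends on the probe. The small heat shock protein gene Hspb8 rose by 1.69, from 8.54, 9.07 and 7.93 to 9.91, 10.47 and 10.23 (limma adjusted p = 0.00097). Of the 15 genes of the stress list 0 were called, near the share of 1.8% over all genes.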
